A study of Mus musculus with 6 samples.

Results

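The T cell receptor complex genes were examined as 10 rows of the deposited table, matched by gene symbol: *Cd3d*, *Cd3e*, *Cd3g*, *Cd247*, *Cd4*, *Lck*, *Zap70*, *Lat*, *Il2rb* and *Thy1*. All 10 were found among the 15667 genes of the table, and all 10 had a mean of at least 1 CPM, a count scaled to a library total of 1000000. RNA came from ear skin at the tick bite site of female littermates of 7 to 8 weeks of age from the B6;129-Adipoq tm1Chan/J line, a mixed background. WT mice (Adipo+/+, n = 3) were compared with KO mice (Adipo-/-, n = 3), which carried the targeted *Adipoq* null allele in every cell rather than in fat alone. Both groups had been infested with 10 *Ixodes scapularis* nymphs per mouse for 48 h, while unbitten skin was not analysed here. Each library was made from a biopsy of a separate mouse.

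T cells recognize antigen through a receptor whose antigen-binding chains have almost no tail inside the cell. Signals pass instead through the CD3 chains (encoded by *Cd3d*, *Cd3e*, *Cd3g* and *Cd247*), whose tyrosine motifs are phosphorylated by the kinase LCK, which is carried by the coreceptors CD4 and CD8. The kinase ZAP-70 then docks on the CD3 chains and phosphorylates LAT, a membrane adaptor on which the downstream enzymes assemble. In mouse skin, T cells bearing gamma-delta receptors live in the epidermis as dendritic epidermal T cells, and alpha-beta T cells patrol the dermis.

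Implied depth was 3403711 to 6591514 reads per library, so that 3 reads stood for 0.455 to 0.881 CPM. *Adipoq* was at 30.5 to 63.7 CPM in WT libraries and at 0 to 0.560 CPM in KO libraries, so each library was on the side its label gives. A ribosomal RNA gene, *Rn45s*, took 7.99% to 11.4% of each library. The labelled tissue was checked with keratinocyte markers. Of 12 symbols listed, some of them synonyms, 10 were in the table, and *Krt10*, a keratin of the upper epidermis, was at 8608 to 15152 CPM. Libraries differed widely in hair follicle genes (all 16 in the table; summed level 54.7, 73.0 and 22888 CPM in WT replicates 1, 2 and 3, and 1882, 9078 and 1015 CPM in the KO replicates) and in neutrophil genes (10 of 12 in the table; 72.0 to 647 CPM in WT and 134 to 242 CPM in KO). Their part in the results below was not tested beyond the alternatives given.

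The CD3 chains were described first, beginning with the genes themselves. *Cd3g* (chromosome 9, 44969572 to 44980431, minus strand), *Cd3d* (chromosome 9, 44981786 to 44987052, plus strand) and *Cd3e* (chromosome 9, 44998743 to 45009611, minus strand; GRCm38) lie in a single cluster of 40040 bases. *Cd3g* and *Cd3d* point away from each other, with start sites 1355 bases apart, while *Cd3e* starts 27825 bases beyond *Cd3d*. *Cd247* (chromosome 1, 165788681 to 165871153, plus strand) encodes the zeta chain. The windows from 250 bases before to 50 bases after the start site are shown for these 4 genes because they place the start of each chain whose level is compared below. They are RefSeq sequences of GRCm38.p6, printed 5′ to 3′ on the strand of the gene. Capitals mark ACTTCC or its reverse complement GGAAGT, one form of the site bound by ETS family factors, called the ETS core below. GGAA or TTCC in other surroundings was not marked or counted.
Cd3d, chr9:44981536-44981835, plus strand: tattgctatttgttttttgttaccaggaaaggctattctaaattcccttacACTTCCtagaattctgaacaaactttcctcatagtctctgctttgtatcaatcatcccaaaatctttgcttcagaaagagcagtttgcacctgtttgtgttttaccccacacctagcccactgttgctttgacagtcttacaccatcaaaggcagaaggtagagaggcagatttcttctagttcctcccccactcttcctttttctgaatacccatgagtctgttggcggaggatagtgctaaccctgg
Cd3g, chr9:44980382-44980681, minus strand: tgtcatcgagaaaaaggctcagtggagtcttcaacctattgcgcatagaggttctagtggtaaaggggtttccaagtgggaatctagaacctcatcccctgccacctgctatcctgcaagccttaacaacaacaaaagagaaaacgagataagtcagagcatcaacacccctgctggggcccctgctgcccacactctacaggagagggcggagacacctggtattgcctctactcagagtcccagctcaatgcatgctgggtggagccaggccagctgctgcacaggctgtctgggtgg
Cd3e, chr9:45009562-45009861, minus strand: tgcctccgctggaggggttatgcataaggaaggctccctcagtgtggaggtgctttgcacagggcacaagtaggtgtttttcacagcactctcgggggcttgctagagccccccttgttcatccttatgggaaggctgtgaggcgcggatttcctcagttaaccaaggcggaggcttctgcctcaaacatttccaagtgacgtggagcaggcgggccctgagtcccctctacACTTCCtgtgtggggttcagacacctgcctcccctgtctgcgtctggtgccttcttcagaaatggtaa
Cd247, chr1:165788431-165788730, plus strand: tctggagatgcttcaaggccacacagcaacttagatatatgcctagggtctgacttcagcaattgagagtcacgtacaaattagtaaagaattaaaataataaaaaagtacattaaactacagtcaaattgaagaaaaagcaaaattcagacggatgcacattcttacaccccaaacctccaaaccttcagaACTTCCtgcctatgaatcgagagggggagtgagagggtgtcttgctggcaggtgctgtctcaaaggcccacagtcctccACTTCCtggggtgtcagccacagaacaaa

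By symbol, 7 of the 10 genes were matched to RefSeq windows, and for each of the 7 a window lay at the deposited gene start. The ETS core was found in 4 of these 7 windows (*Cd3d*, *Cd3e*, *Cd247* and *Lck*), against 23.8% of all 32851 windows of the same length. In *Cd3e* it began 18 bases before the start site. The RUNX core TGTGGT (or ACCACA) was in 2 of 7, against 16.8% of all windows, the TATA box letters TATAAA (or TTTATA) in 0 of 7, against 13.6%, and the E-box CANNTG in 7 of 7, against 72.3%. Both strands were searched and overlaps between motifs were allowed. These matches describe letters in the windows and do not show binding.

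Among the CD3 chains, *Cd3e* had the highest level per transcript length and *Cd3d* the lowest. The level of *Cd3e*, which pairs with both other small chains, was 11.6, 12.4 and 9.89 CPM in WT replicates 1, 2 and 3, and 7.89, 14.6 and 9.70 CPM in KO replicates 1, 2 and 3, the order kept for all genes below. KO replicates 1 and 2 held both the lowest and the highest value, so that the groups overlapped fully (WT 11.3 ± 1.29, KO 10.7 ± 3.46 CPM, SD, n = 3 each). The limma log2 fold change of KO against WT was -0.11 (SE 0.26), a fold of 0.926 with a 95% interval of 0.614 to 1.40. *Cd3d*, the delta chain, was at 2.18, 2.64 and 1.81 CPM in WT mice, and at 1.21, 3.08 and 2.06 CPM in KO mice. Only 7 to 13 reads stood behind each of these values. Its KO libraries again lay on either side of the WT libraries (log2 fold change -0.10, SE 0.39).

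*Cd3g* alone of the 10 genes had KO values entirely below the WT values. The gamma chain gene was at 6.05, 7.53 and 5.94 CPM in WT mice, and at 4.55, 4.20 and 5.58 CPM in KO mice. The highest KO value thus lay just under the lowest WT value (WT 6.50 ± 0.887, KO 4.78 ± 0.717 CPM, SD, n = 3 each). Its log2 fold change was -0.41 (SE 0.24; fold 0.753, 95% interval 0.509 to 1.11), with an adjusted p of 0.998 in limma. Without replicates being considered, 98 reads in WT and 64 in KO gave a ratio per depth of 0.728 (95% exact binomial interval 0.523 to 1.01), which covers counting error only. Complete separation of the groups was seen in 7.84% of the 14306 genes tested (4.89% with KO below WT and 2.95% with KO above), against 1 of these 10.

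For *Cd247*, levels were 4.11, 7.95 and 5.33 CPM in WT mice, and 3.61, 4.28 and 7.23 CPM in KO mice. One library in each group stood above the rest, WT replicate 2 and KO replicate 3, and the groups overlapped (WT 5.80 ± 1.96, KO 5.04 ± 1.92 CPM, SD, n = 3 each; log2 fold change -0.19, SE 0.35). The last 6000 bases of *Cd247* overlap *Pou2f1* on the opposite strand, and the sources used here do not say whether counting used strand, so reads there cannot be assigned with certainty. *Cd3e* likewise shares 3557 bases with an annotated antisense gene, *Gm48719*, which has no row of its own here.

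**Figure D1:**
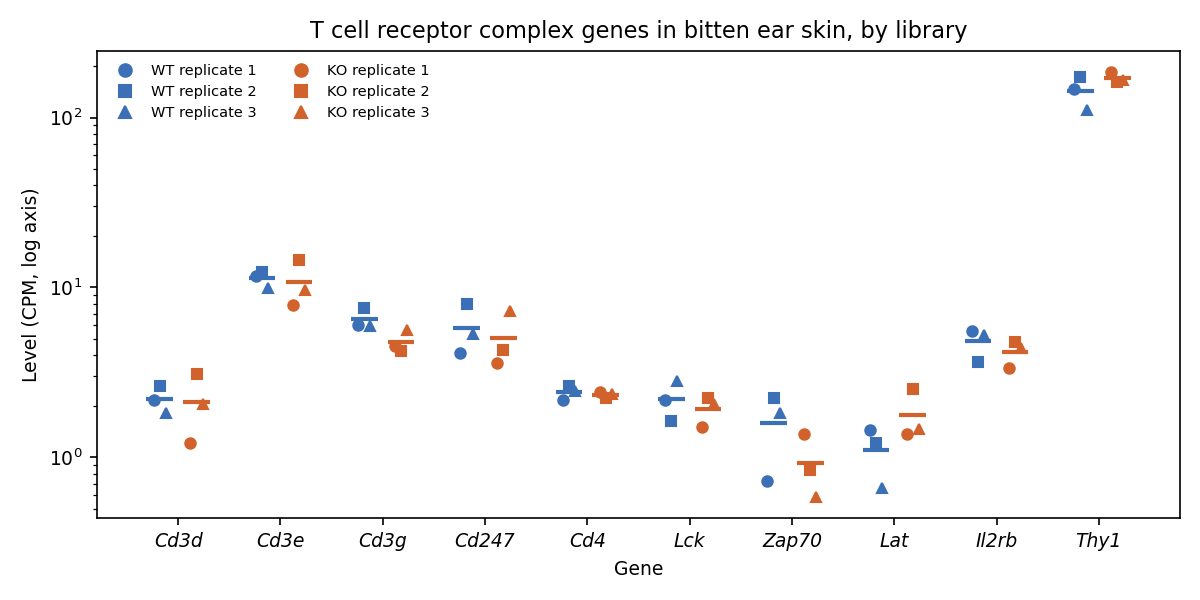
Level of each gene in every library (vertical axis, CPM on a log axis; horizontal axis, gene). Symbols mark replicates 1, 2 and 3 of WT (blue) and KO (orange), and short lines mark group means. The groups overlap for every gene except *Cd3g*, and *Thy1* is at 111 to 186 CPM.

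The coreceptor and the kinases were near the limit of these libraries. *Cd4* (chromosome 6, 124864693 to 124888200, minus strand) varied least of all 10 genes, at 2.18, 2.64 and 2.47 CPM in WT mice, and 2.43, 2.24 and 2.35 CPM in KO mice. Its highest value was only 1.21 times its lowest. The log2 fold change was -0.04 (SE 0.30), and the 95% interval of the fold, 0.603 to 1.56, shows how wide a difference 69 reads in all still allow. *Cd8a* and *Cd8b1*, which encode the other coreceptor, were not analysed here.

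*Lck* (chromosome 4, 129548344 to 129573641, minus strand) was at 2.18, 1.63 and 2.80 CPM in WT mice, and 1.52, 2.24 and 2.06 CPM in KO mice. The ranges overlapped, and WT replicate 3 was highest (log2 fold change -0.14, SE 0.35). *Zap70* (chromosome 1, 36761798 to 36782820, plus strand) had the lowest level per transcript length of the 10 genes. It was at 0.726, 2.24 and 1.81 CPM in WT mice, and at 1.37, 0.841 and 0.588 CPM in KO mice, so that 3 libraries were below 1 CPM. WT replicate 1 lay among the KO values rather than with the other WT libraries. At 2 to 11 reads per library its difference had the widest interval (log2 fold change -0.50, SE 0.47; 95% interval of the log2 fold change -1.59 to 0.58). For KO replicate 3, with 2 reads, the exact Poisson interval of the level itself was 0.0712 to 2.12 CPM.

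*Lat* (chromosome 7, 126363828 to 126369568, minus strand), the adaptor phosphorylated by ZAP-70 and also used by mast cells and platelets, was one of only 2 genes with a higher mean in KO. Its level was 1.45, 1.22 and 0.659 CPM in WT mice, and 1.37, 2.52 and 1.47 CPM in KO mice. KO replicate 2 was highest, and KO replicate 1 lay below WT replicate 1 (log2 fold change 0.50, SE 0.41; fold 1.42, 95% interval 0.732 to 2.75). Between 4 and 9 reads stood behind each value. Mast cell markers (8 of 8 in the table, none at 0 throughout) summed to 148 to 177 CPM in WT and 97.7 to 184 CPM in KO. Platelet markers (5 of 7) summed to 62.0 to 66.9 CPM in WT and 34.9 to 66.1 CPM in KO, and their part in the level of *Lat* was not tested.

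*Il2rb* (chromosome 15, 78480549 to 78495066, minus strand) encodes the chain that binds both IL-2 and IL-15 and is also carried by natural killer (NK) cells. It was at 5.57, 3.66 and 5.28 CPM in WT mice, and at 3.34, 4.76 and 4.41 CPM in KO mice. WT replicates 1 and 3 were above every KO library and WT replicate 2 was not (log2 fold change -0.19, SE 0.28; fold 0.879, 95% interval 0.557 to 1.39). Of 14 markers of NK and cytotoxic lymphocytes, 6 were in the table, with a median summed level of 15.2 CPM in WT mice and 17.4 CPM in KO mice.

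*Thy1* (chromosome 9, 44043384 to 44048579, plus strand), a surface glycoprotein of mouse T cells that fibroblasts and neurons also carry, was at 148, 174 and 111 CPM in WT mice, and at 186, 163 and 165 CPM in KO mice. WT replicate 3, the library with the most hair follicle RNA, was lowest, and WT replicate 2 lay within the KO range. The log2 fold change was 0.27 (SE 0.17; fold 1.21, 95% interval 0.923 to 1.57), and it was 0.09 without WT replicate 3. With 2138 reads in WT and 2367 in KO, the ratio per depth was 1.23 (95% exact binomial interval 1.16 to 1.31). Counting error was thus small beside the spread between mice. The summed fibroblast markers (10 of 10) were 4709 to 5793 CPM in WT and 4749 to 7245 CPM in KO. Most of this sum came from *Col3a1*, *Col1a1* and *Col1a2* (log2 fold change 0.38, 0.50 and 0.32). Over the whole list 6 of 10 markers were below 0 (median -0.04), against 56.7% of all genes tested. Peripheral nerve markers (10 of 10) summed to 290 to 380 CPM in WT and 301 to 435 CPM in KO. Pearson r of *Thy1* with the mean log2 level of the list over the 6 libraries was 0.06 for fibroblasts and 0.13 for nerve. Over all gene lists used here it ran from -0.86 (platelets) to 0.81 (keratinocytes). The part of fibroblasts, nerve and other cells in the level of *Thy1* was not tested.

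Over all 10 genes, 0 passed in limma at an adjusted p below 0.05 (each adjusted p = 0.998), against 0.0140% of the genes tested. At an unadjusted p below 0.05 there were also 0 of 10, against 2.88% of the genes tested (1.82% lower and 1.06% higher in KO). The split over all genes, 260 lower and 152 higher, depended on scaling: it was 215 and 210 with median-of-ratios scaling and 193 and 232 with quantile scaling. The smallest unadjusted p among the 10 genes, that of *Cd3g*, ranked 1385 among all genes. The log2 fold change was below 0 in 8 of the 10, against 56.7% of all genes tested, and its median was -0.12, against -0.03 over all genes. The half-width of the 95% interval ran from 0.39 for *Thy1* to 1.09 for *Zap70* on the log2 scale. Each half-width is the size at which an estimate with that SE would reach an unadjusted p of 0.05 in limma. It is not a detection limit, and the size of difference needed to pass adjustment was not tested. In whole skin, the number of T cells and the RNA per T cell cannot be told apart.

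**Figure D2:**
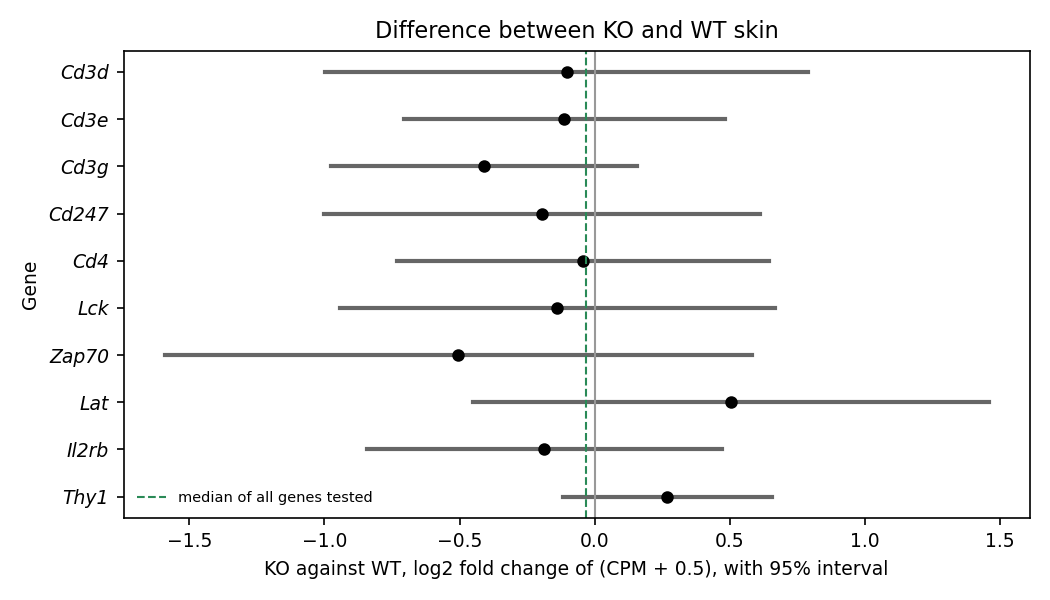
Difference between KO and WT for each gene (horizontal axis, log2 fold change of CPM + 0.5; points, limma estimates; bars, 95% intervals; dashed line, median of all genes tested). Every interval includes 0, and those of *Zap70* and *Lat*, with 39 reads each, are the widest.

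Levels were next compared between genes after division by the length of the principal transcript (GENCODE M21). These lengths may differ from those of the gene models used for counting. *Thy1* was highest, at 90.9 ± 15.2 CPM per kb (SD over all 6 libraries), and its lowest library (63.8) exceeded the highest *Cd3e* value (9.97). Then came *Cd3e* (7.53 ± 1.61), *Cd3g* (5.51 ± 1.16) and *Cd247* (3.32 ± 1.09 CPM per kb). The ranges of these neighbours overlapped, but within each of the 6 libraries the order was the same. All values of *Cd247* were above those of *Cd3d* (1.34 ± 0.402 CPM per kb). From *Cd3d* downwards, *Lat* (1.17 ± 0.490), *Il2rb* (1.07 ± 0.210), *Lck* (0.948 ± 0.213), *Cd4* (0.768 ± 0.0541) and *Zap70* (0.562 ± 0.295 CPM per kb) had overlapping ranges, and each was above the next in only 4 or 5 of 6 libraries.

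**Figure D3:**
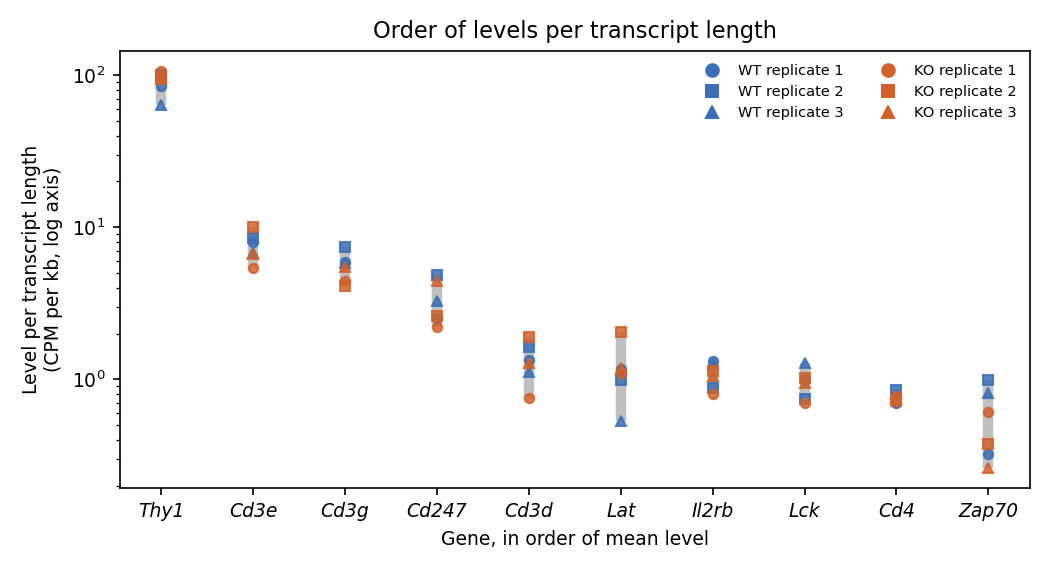
Level per transcript length of each gene (vertical axis, CPM per kb on a log axis), ordered by mean. Symbols are single libraries, blue for WT and orange for KO, and grey bars span the range. *Thy1* is separated from all other genes, and the 6 genes from *Cd3d* to *Zap70* overlap with their neighbours.

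To compare libraries rather than genes, the 4 CD3 chains were summed. The sums were 24.0, 30.5 and 23.0 CPM in WT mice, and 17.3, 26.1 and 24.6 CPM in KO mice. The mean was 25.8 ± 4.11 CPM for WT and 22.7 ± 4.73 CPM for KO mice (SD, 3 mice each). KO replicate 1 was lowest, and it was also the lowest library for 5 of the 10 genes (*Cd3d*, *Cd3e*, *Cd247*, *Lck* and *Il2rb*), while WT replicate 2 was highest for 4. *Ptprc*, the pan-leukocyte phosphatase CD45 that keeps LCK active, was at 72.9, 67.3 and 39.9 CPM in WT mice, and 48.7, 59.7 and 39.7 CPM in KO mice. The sum of the CD3 chains was 32.9%, 45.3% and 57.6% of the *Ptprc* level in WT and 35.5%, 43.8% and 61.9% in KO. This percentage is not corrected for length and serves only to set libraries side by side. It spanned nearly the same range in both groups, and it was highest in the library of each group with the least *Ptprc*. The latter is partly built in, because *Ptprc* is the divisor.

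**Figure D4:**
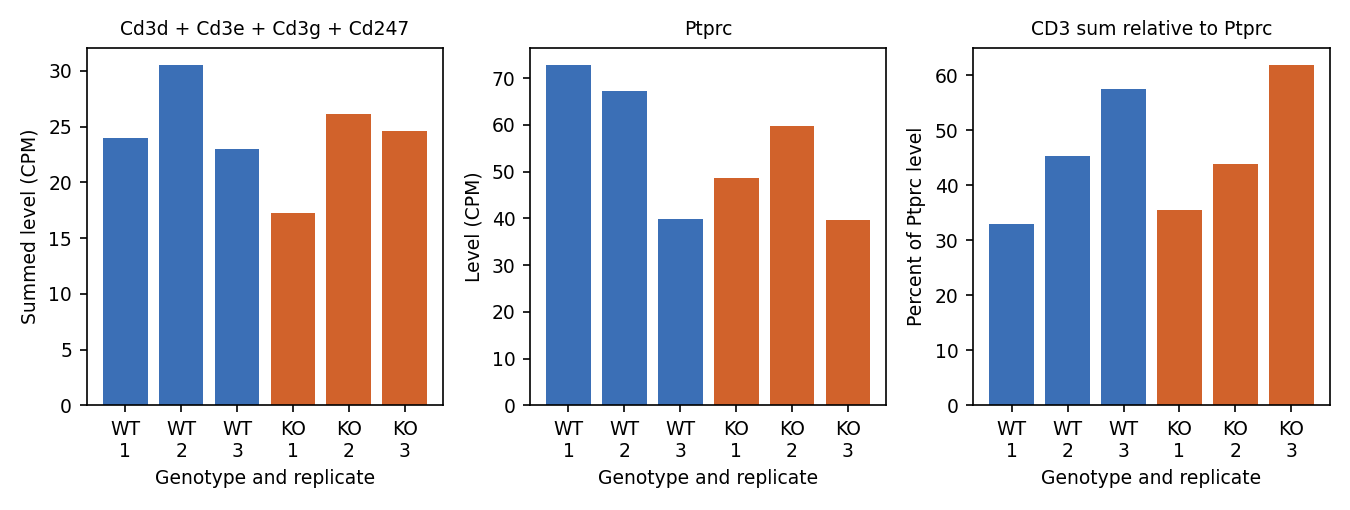
Summed level of the 4 CD3 chain genes, level of *Ptprc* (both in CPM) and the first as a percent of the second, one bar per library (WT blue, KO orange). The percent runs from 32.9 to 57.6 in WT and from 35.5 to 61.9 in KO.

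Among all pairs of the 10 genes, Pearson r across the 6 libraries was highest for *Cd3d* and *Cd3e* (0.97). Next came *Lck* and *Il2rb* (0.89) and *Cd4* and *Zap70* (0.87), and the lowest r was that of *Lck* and *Thy1* (-0.90). These are the extremes of many pairs. For *Cd3e* and *Cd3g*, the outer genes of the cluster, r was 0.09. These values describe 6 libraries of different depth, and for genes of a few reads they are weak. Among the 8 genes outside the set whose pattern was most like the mean of the CD3 chains, of 11682 with a mean of at least 5 CPM, were *Borcs7*, *Sulf1*, *Abca8a*, *C130074G19Rik*, *Arl6ip5*, *Wrn* and *Polrmt* (r = 0.98 to 0.99 over 6 libraries). *Sulf1*, an extracellular sulfatase that trims heparan sulfate, was at 14.8, 20.7 and 14.3 CPM in WT mice, and 9.56, 14.9 and 17.0 CPM in KO mice. The CD3 mean was highest in WT replicate 2 and lowest in KO replicate 1. The genes named here all had the same extremes, which follows from their being picked by likeness to that mean. Among 11682 candidates and 6 libraries, such r values can also arise without any link.

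Other genes of T cells and their signaling were then counted, in 8 lists of 114 symbols, of which 70 were tested. In limma 0 of the 70 passed at an adjusted p below 0.05 (0.0140% of all genes tested) and 0 at an unadjusted p below 0.05 (2.88%). Their log2 fold changes were below 0 in 37 of 70, against 56.7% of all genes, with a median of -0.004, and 3 (*Il7*, *Runx3* and *Cxcr6*) had groups that did not overlap, against 7.84% of all genes tested. Of the 12 symbols listed for receptor chains, synonyms included, 11 were not analysed here. The remaining one, *Trat1*, a receptor-associated adaptor, was at 3.63, 7.53 and 5.94 CPM in WT mice, and 5.01, 7.01 and 3.23 CPM in KO mice.

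Of 12 coreceptor and costimulation genes 4 were tested. *Cd28*, the main costimulatory receptor, was at 2.42 to 4.07 CPM in WT and 2.80 to 3.79 CPM in KO (log2 fold change -0.002, SE 0.31). *Cd2*, an adhesion receptor, ranged from 0.560 to 3.87 CPM over both groups (-0.34, SE 0.56). The other tested genes were *Cd5* (0.28, SE 0.40), a receptor that dampens signaling, and *Cd96* (0.08, SE 0.28), a receptor of T and NK cells. In the list of proximal signaling 17 of 21 genes were tested (median log2 fold change -0.03). Its most abundant genes were *Ppp3ca*, the calcineurin subunit that activates NFAT (0.004, SE 0.12), *Nfatc3* (-0.08, SE 0.10) and *Nfatc1* (-0.13, SE 0.12), which cells other than T cells also use. *Plcg1*, the phospholipase recruited by LAT, had the smallest p (0.16, SE 0.11). Among 12 tested brakes on signaling (median -0.04), *Dok1*, a docking protein that recruits RasGAP, had the smallest p (-0.46, SE 0.27). The most abundant brakes were the ubiquitin ligases *Cbl* (-0.04, SE 0.12) and *Cblb* (-0.02, SE 0.10) and *Csk* (0.07, SE 0.12), the kinase that restrains LCK.

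In the IL-2 and IL-15 receptor pathway 11 of 12 genes were tested (median 0.06). *Il7*, a survival cytokine for T cells made by keratinocytes, was at 3.39, 4.88 and 4.29 CPM in WT mice, and at 2.58, 1.96 and 3.23 CPM in KO mice. The groups did not overlap, and the adjusted p was 0.998 (log2 fold change -0.61, SE 0.31). *Stat5a* (0.19, SE 0.16) and *Stat5b* (0.10, SE 0.14), which carry the signal of these receptors to the nucleus, overlapped between groups, as did the kinase gene *Jak1* (0.06, SE 0.11). Among 14 tested transcription factors (median -0.004), *Runx3*, a factor of CD8 T cells and of dendritic epidermal T cells, was at 9.07 to 10.7 CPM in WT and at 8.50 to 8.97 CPM in KO (-0.15, SE 0.19). *Bcl11b* (0.25, SE 0.13), *Gata3* (0.21, SE 0.18) and *Rora* (0.16, SE 0.13) were at 228 to 966 CPM, and keratinocytes express them too.

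Of 14 NK and cytotoxic genes 5 were tested (median 0.31). *Klrk1*, the activating receptor NKG2D, was at 4.60, 4.48 and 4.29 CPM in WT mice, and 5.92, 7.29 and 4.11 CPM in KO mice (log2 fold change 0.31, SE 0.28). *Prf1*, the pore-forming perforin, had the smallest p of the list and the opposite sign, at 5.57, 5.49 and 2.97 CPM in WT mice, and 2.12, 3.64 and 3.82 CPM in KO mice (-0.47, SE 0.36). The groups overlapped for both genes, and for *Nkg7*, a granule membrane protein (0.46, SE 0.43). Of 11 markers of skin-resident T cells 6 were tested (median -0.005). *Cxcr6*, a chemokine receptor of resident T cells, was at 1.21, 2.85 and 2.47 CPM in WT mice, and at 3.64, 5.04 and 3.53 CPM in KO mice. All 3 KO libraries lay above all 3 WT libraries (log2 fold change 0.81, SE 0.36, 95% interval -0.03 to 1.65), and the adjusted p in limma was 0.998. *S1pr1*, which lets T cells leave tissue and is abundant in endothelium, was at 14.8 to 19.1 CPM in WT and 13.2 to 15.1 CPM in KO (-0.25, SE 0.17). *Ahr* (0.07, SE 0.14), a receptor that epidermal T cells need, and *Fcer1g* (0.04, SE 0.27) were also measured.

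**Figure D5:**
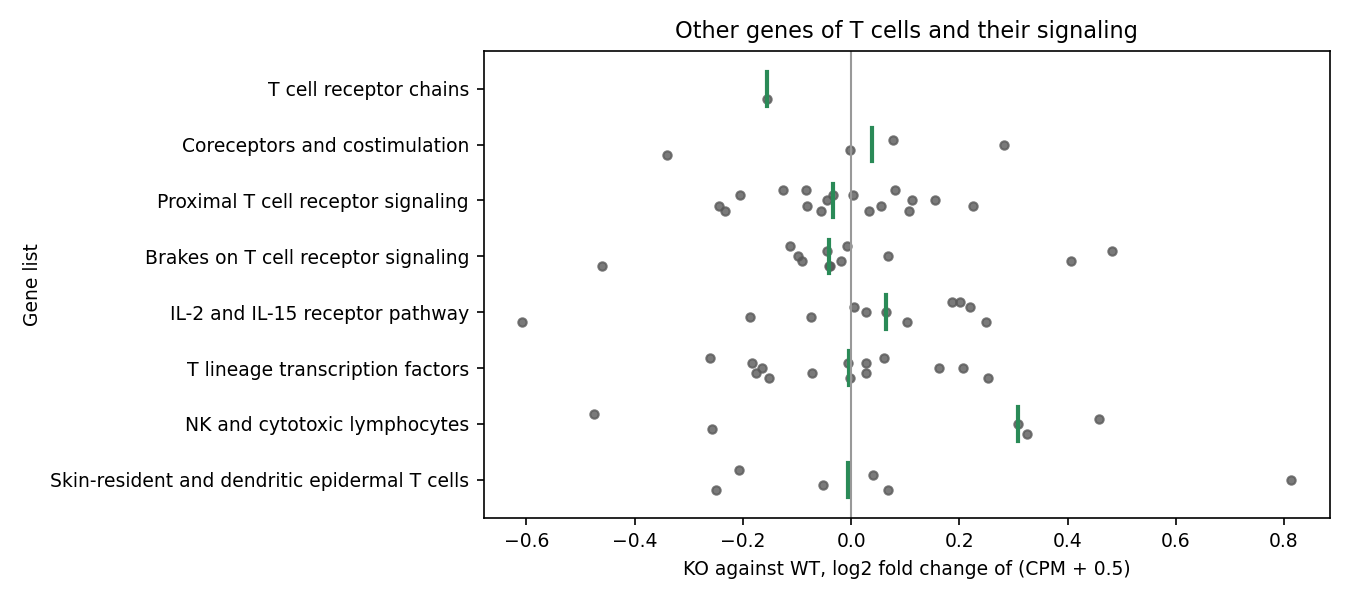
Difference between KO and WT for the tested genes of 8 lists (horizontal axis, log2 fold change of CPM + 0.5; points, genes; green lines, list medians). Medians lie between -0.16 and 0.31, and *Cxcr6* is the point farthest to the right at 0.81.

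Markers of other leukocytes were read beside these results. All 10 pan-leukocyte markers were in the table, summing to 216 to 381 CPM in WT and 260 to 378 CPM in KO, and 0 of 10 reached an unadjusted p below 0.05 in limma. Macrophage and monocyte markers (12 of 12) summed to 456 to 919 CPM in WT and 485 to 893 CPM in KO. Dendritic and Langerhans cell markers (12 of 12) summed to 529 to 768 and 584 to 682 CPM. Of these markers 7 had a mean of at least 1 CPM. Most of the sum came from *Cd74* (354 to 575 CPM in WT, 410 to 495 CPM in KO), followed by *Epcam* (107 to 135 and 126 to 139 CPM). Some dendritic cells also carry CD4, and their part in the level of *Cd4* was not tested. Of 8 B cell markers 7 were not analysed here, and the remaining one, *Cd22*, was at 0 to 0.659 CPM.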

How the data were processed

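RNA-seq of bitten ear skin was analysed in 3 WT and 3 KO libraries. Reads were trimmed, aligned to mm10 with STAR (2.7.3a, per the submitters' processing notes) and quantified to Ensembl transcripts in Partek Flow by an expectation-maximization method, which can split reads between genes. The authors deposited one table of CPM values: gene counts divided by the library total, with an offset of 0.0001 that was subtracted here. Listed gene ends were lowered by 1. Although Ensembl is the annotation named in the methods, both ends of the listed gene equalled those in RefSeq for 45.8% of 15264 genes and those in GENCODE M21 for 14.3%, so the gene models behind the counts are uncertain. Low values were mostly multiples of 1 step per column (91.8% to 92.6% of values under 20 reads lay within 0.1 of a whole read), from which depth was implied, and read counts given here are such estimates.

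The 14306 genes whose mean reached 1 CPM were tested on log2(CPM + 0.5) values by limma (3.58.1, R 4.3.3) with a mean-variance trend, two-sided and without covariates. The Benjamini-Hochberg adjustment ran over all genes tested. Fold changes are on this scale, which understates those of low genes. The smallest p that exact permutation of 3 against 3 libraries allows is 0.1. Recovery of known changes was tested on simulated data. Motifs were counted in RefSeq windows (GRCm38.p6).

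The 10 genes and the lists were chosen with earlier results of these data known. The genes named are the 10 and, from each of the 8 T cell lists, the 3 with the highest mean and the 1 with the smallest p. From lists of other cell types not all such genes are printed. Genes most like the CD3 chains were ranked by Pearson correlation of log2 values, and 1 of the 8 is not reported here. *Runx3*, *Lef1*, *Runx1*, *Dok2* and *Cd22* were named after their values were seen.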

Additional observations from a re-analysis of the deposited data

How the results depend on the processing

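The 10 genes were recomputed under 18 alternatives: pseudocounts of 0.1 and 2, low values left unfiltered, a minimum mean of 5 CPM (which kept 4 of the 10), median-of-ratios and quantile scaling, no trend, robust empirical Bayes, array weights, limma voom on implied reads, the hair follicle score as a covariate, the replicate block, and each library left out. No gene passed adjustment under any of them (smallest adjusted p 0.625, *Thy1* with the hair follicle covariate, log2 fold change 0.41). Of 174 log2 fold changes, 168 kept their direction and 6 were reversed, all when 1 library was left out. The range over left-out libraries was -0.36 to 0.17 for *Cd3d* (0.0084 without WT replicate 2, 0.17 without KO replicate 1). It was -0.35 to 0.076 for *Cd3e* (0.076 without KO replicate 1), -0.46 to 0.041 for *Cd247* and -0.11 to 0.0086 for *Cd4* (both highest without WT replicate 2), and -0.30 to 0.019 for *Lck* (0.019 without WT replicate 3). The others kept their sign, at -0.52 to -0.31 for *Cd3g*, -0.85 to -0.27 for *Zap70* (without WT replicates 1 and 2), 0.28 to 0.66 for *Lat* (lowest without WT replicate 3), -0.36 to -0.05 for *Il2rb* (without WT replicate 2 and KO replicate 1) and 0.09 to 0.42 for *Thy1* (without WT replicates 3 and 2). At an unadjusted p below 0.05 in limma, the 10 genes gave 1 lower without the trend (*Cd3g*), and 1 higher with the hair follicle covariate (*Thy1*). With a library left out there were 0 to 1 higher (*Thy1* without WT replicate 2, 0.42). The number whose groups did not overlap was 1 to 4 with a library left out, where fewer libraries leave less room to overlap. The 7.84% above is for all 6 libraries and was not recounted under these settings.

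Among the 70 other T cell genes, 1 was lower without the trend (*Il7*) and 1 with the hair follicle covariate (*Lef1*, -1.26), and 0 to 1 with a library left out (*Runx1* without KO replicate 2, -0.53). Higher genes numbered 1 with a pseudocount of 2, 1 with median-of-ratios scaling, 2 with quantile scaling, 1 without the trend, 2 with the hair follicle covariate (*Bcl11b* and *Dok2*), and 0 to 2 with a library left out. *Cxcr6* was the higher gene with the pseudocount of 2, with median-of-ratios scaling and without the trend. *Lef1* was at 1.19 without WT replicate 3. The causes were not tested.

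Replicate numbers are not said to pair mice. Deviations from the group means correlated at 0.38, -0.31 and -0.22 between same-numbered libraries, so the numbers were not taken as pairs. With the replicate block, limma gave an unadjusted p below 0.05 for 0 of the 10 genes and 0 of the 70, and for 414 lower and 177 higher genes in all, against 260 and 152 without it. These counts over all 14306 genes were 324 and 187 without the trend, 558 and 302 with the hair follicle covariate and 420 and 221 with array weights. With a library left out, lower genes numbered 147 to 395 and higher genes 89 to 313. The split turned to 147 lower and 162 higher without WT replicate 2, and was 302 and 89 without KO replicate 3 and 395 and 313 without WT replicate 3. All genes but *Thy1* rested on 39 to 306 reads over 6 libraries, while *Thy1*, with 4505 reads, did not pass either.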
